A study of Danio rerio with 4 samples.

Results

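The genes described here are 1 Wnt ligand, *wnt11r*, and 4 genes counted as inhibitors of Wnt signaling, *dkk1b*, *apcdd1l*, *nkd1* and *nkd2b*. They were measured in cells sorted from zebrafish larval heads. They were chosen by gene symbol, and each is 1 of the 756 genes in the deposited table, which gives 5 of 756. Venus positive, mCherry negative cells and double negative cells were sorted by FACS from heads dissected at 48 hpf and sequenced as bulk Smart-seq2 libraries, 2 in each group. All larvae were of genotype Wildtype and carried *Tg(kdrl:Hsa.HRAS-mCherry)* together with *TgBAC(apln:Venus-PEST)*. The Venus reporter is driven by a bacterial artificial chromosome that carries *apln*, the gene of the Apelin ligand, and the mCherry reporter by *kdrl*, which is active in endothelial cells, so that endothelial cells were kept out of both groups. The labels give the cell type of all 4 libraries as mixed, and no label says whether a group's libraries are from different clutches or separate sorts, so the p-values rest on the spread among the 4 libraries alone, which may be technical. The comparison asks which genes the Venus positive cells express at a higher or lower level than the other non-endothelial cells of the head.

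Wnts are secreted, lipid-modified ligands that bind Frizzled receptors on the receiving cell. Together with Lrp coreceptors they stabilize β-catenin through the cytoplasmic protein Dishevelled, and some Wnts, among them those of the Wnt11 type, mainly act without β-catenin on cell movement and polarity. Cells limit the pathway at several levels, with secreted proteins of the Dickkopf family that block the Lrp coreceptors, with membrane proteins such as Apcdd1, and with Naked cuticle proteins that bind Dishevelled inside the cell. In the brain, Wnt/β-catenin signals also guide blood vessel growth and barrier formation.

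All 5 genes were higher in Venus positive cells, by 3.53-fold for *nkd1* to 7.66-fold for *wnt11r* on the means of normalized read counts, although with RLE or TMM scaling over the listed genes alone only *wnt11r* was called, and *dkk1b*, *apcdd1l*, *nkd1* and *nkd2b* were not. With scaling by total reads each passed edgeR's quasi-likelihood test with a Benjamini-Hochberg adjusted p of 0.00481 or less over the 754 genes tested. Of the genes tested in the deposited table, 64.2% were higher by the same test, 35.8% were lower and 100.0% passed in either direction, because the table holds only genes that had already passed the authors' own comparison of these libraries. The calls of the 5 genes therefore add no independent evidence of a difference, and the values below describe its size. Separation of the groups is not particular to the 5 genes either, since the groups did not overlap in 754 of the 754 genes tested. In 64.2% of these both Venus positive libraries lay above both double negative libraries. The median log2 fold change of the 5 genes was 2.46, beside 1.88 over all genes tested and 2.40 over the 484 genes called higher. In bulk libraries, fewer cells of a type and less RNA per cell cannot be told apart.

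**Figure D1:**
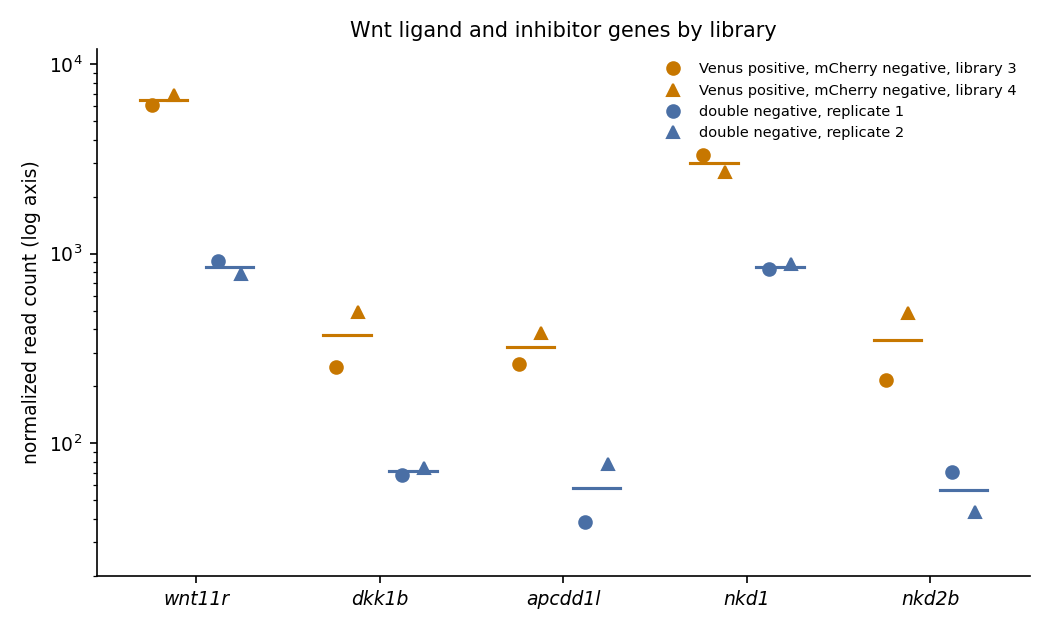
Normalized read counts (log axis) of the 5 genes in each library, with Venus positive, mCherry negative libraries in orange to the left of double negative libraries in blue; circles and triangles are the 2 libraries of a group and the lines are their means. In every gene both orange points lie above both blue points, with the narrowest gap in *nkd2b*, 3.06-fold, and the widest in *wnt11r*, 6.67-fold. The same order of the groups held for 64.2% of the 754 genes tested.

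*wnt11r* (NCBI gene 30283, listed under the symbol *wnt11* in RefSeq) encodes a Wnt11-type ligand, which in zebrafish guides the early patterning of muscle fibers for their synapses. It had 5050 and 7164 reads in Venus positive libraries 3 and 4, and 1056 and 786 reads in double negative replicates 1 and 2. Scaled to the total reads of each library, these were 6120 and 6874 normalized read counts for Venus positive libraries 3 and 4, against 918.0 and 777.6 in the double negative libraries. The libraries of each group lay close together, 1.12-fold apart in the Venus positive and 1.18-fold apart in the double negative cells, and the groups were well separated. The means were 6497 ± 533.1 in Venus positive and 847.8 ± 99.2 in double negative cells (SD, n = 2 libraries each). The log2 fold change was 2.94 with a standard error of 0.40 (edgeR adjusted p = 0.000203). By the size of its fold change *wnt11r* ranked 140 among the 484 genes called higher, and it was the highest of the 5 genes in both groups per transcript length.

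Of the inhibitors that act outside the cell, *dkk1b* (NCBI gene 30197) encodes a secreted Dickkopf protein that binds Lrp coreceptors and promotes head formation in the zebrafish embryo. It had 209 and 516 reads in the Venus positive libraries and 78 and 75 reads in the double negative libraries. The normalized read counts were 253.3 and 495.1 in Venus positive cells, against 67.8 and 74.2 in double negative cells. The double negative libraries were nearly equal, whereas Venus positive library 4 lay 1.96-fold above library 3, a gap wider than the 95% Poisson counting intervals of 220.1 to 290.0 and 453.3 to 539.7. Both Venus positive values lay above both double negative values, the lower of them by 3.41-fold over the higher double negative value. The means were 374.2 ± 171.0 in Venus positive and 71.0 ± 4.52 in double negative cells (SD, n = 2 each), a log2 fold change of 2.40 with a standard error of 0.64 (edgeR adjusted p = 0.00411). Scaling over the listed genes ended the call, with a log2 fold change of 0.53 for RLE (adjusted p = 0.58) and 0.61 for TMM (adjusted p = 0.491).

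*apcdd1l* (NCBI gene 100001408) encodes a protein related to Apcdd1, which in mammals is a membrane inhibitor that binds Wnts and Lrp coreceptors. *apcdd1l* is counted among the inhibitors on this relation alone, and its own action was not tested. It had 215 and 397 reads in the Venus positive libraries and 44 and 79 reads in the double negative libraries. The normalized read counts were 260.5 and 380.9 in Venus positive cells, against 38.2 and 78.2 in double negative cells. Here the double negative libraries were the uneven ones, 2.04-fold apart with counting intervals of 27.8 to 51.4 and 61.9 to 97.4 that do not meet, and the groups did not overlap. The means were 320.7 ± 85.1 in Venus positive and 58.2 ± 28.2 in double negative cells (SD, n = 2 each), a log2 fold change of 2.46 with a standard error of 0.68 (edgeR adjusted p = 0.00481). The call was lost without double negative replicate 1, the lower library, where the log2 fold change was 2.04. That fit takes its spread from the Venus positive libraries alone. Without replicate 2 the log2 fold change was 3.07. The call was lost as well with scaling over the listed genes, with 0.61 for RLE (adjusted p = 0.544) and 0.71 for TMM (adjusted p = 0.445). Counting intervals of this kind cover counting error only, since the reads carry no molecular identifiers.

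Of the inhibitors that act inside the cell, *nkd1* (NCBI gene 751108) encodes a Naked cuticle protein that binds Dishevelled and is induced by Wnt/β-catenin signaling as negative feedback in zebrafish. It had 2741 and 2831 reads in the Venus positive libraries and 956 and 887 reads in the double negative libraries. The normalized read counts were 3322 and 2716 in Venus positive cells, against 831.1 and 877.6 in double negative cells. The libraries of a group differed by 1.22-fold and 1.06-fold, and the lower Venus positive library lay 3.10-fold above the higher double negative one. The means were 3019 ± 428.1 in Venus positive and 854.3 ± 32.9 in double negative cells (SD, n = 2 each). The log2 fold change of 1.82, with a standard error of 0.38 (edgeR adjusted p = 0.00144), was the smallest of the 5 genes and ranked 398 among the 484 genes called higher. It lay 0.06 below the median of all genes tested, so scaling that sets the middle of the list to no change gave a log2 fold change of -0.08 (RLE, adjusted p = 0.904) or 0.02 (TMM, adjusted p = 0.967).

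*nkd2b* (NCBI gene 794221) encodes a second Naked cuticle protein. It had 178 and 510 reads in the Venus positive libraries and 81 and 44 reads in the double negative libraries. The normalized read counts were 215.7 and 489.3 in Venus positive cells, against 70.4 and 43.5 in double negative cells. It was the most variable of the 5 genes among the Venus positive libraries, with library 4 2.27-fold above library 3 (counting intervals of 185.2 to 249.8 and 447.8 to 533.7), yet both lay above both double negative libraries. The means were 352.5 ± 193.5 in Venus positive and 57.0 ± 19.0 in double negative cells (SD, n = 2 each), a log2 fold change of 2.63 with a standard error of 0.69 (edgeR adjusted p = 0.00389). Without Venus positive library 4 the log2 fold change was 1.92. Scaling over the listed genes ended the call, with a log2 fold change of 0.75 with RLE (adjusted p = 0.446) and 0.82 with TMM (adjusted p = 0.383).

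For each of the 5 genes an exact permutation test on log2(normalized read count + 1), two-sided, gave p = 0.333. This is the smallest value that 2 against 2 libraries allow. It was fixed in advance, since the groups did not overlap in any of the 754 genes tested. The fitted log2 fold changes of the 5 genes ran between 1.82 and 2.94 and their standard errors between 0.38 and 0.69. The spread within a group was taken over the genes tested that had reads in both of its libraries. The median was 1.46-fold over 652 genes in Venus positive cells and 1.42-fold over 741 genes in double negative cells. Set against these medians, *wnt11r* and *nkd1* were closer between libraries in both groups, *dkk1b* was wider apart in the Venus positive cells, *apcdd1l* in the double negative cells and *nkd2b* in both.

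**Figure D2:**
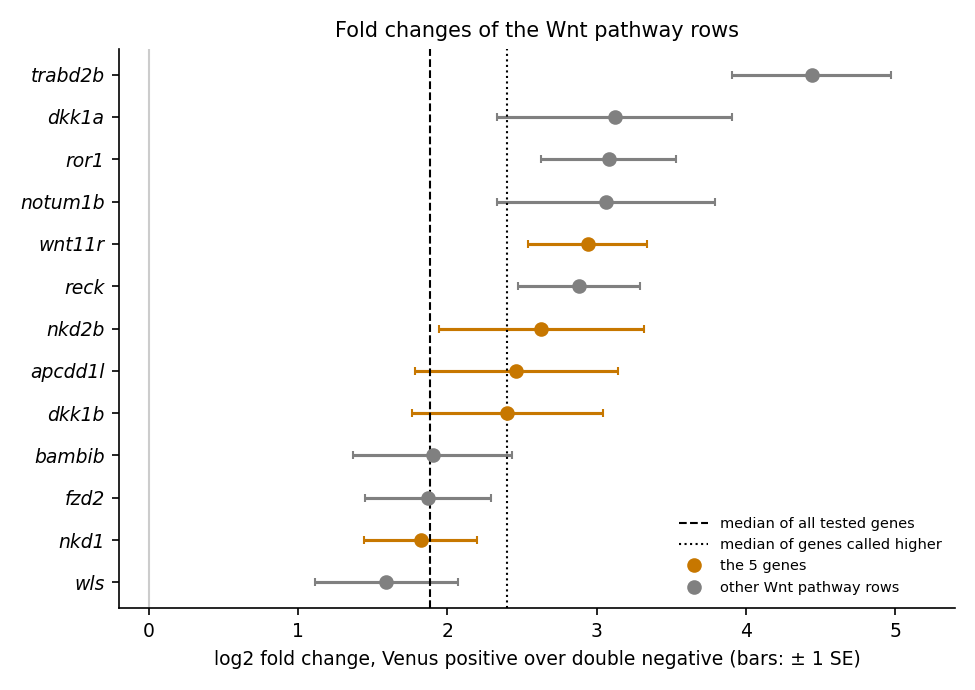
Log2 fold change of Venus positive over double negative cells for the 5 genes (orange) and the 8 other Wnt pathway genes of the table (grey), with bars of 1 standard error derived from edgeR's test statistic. The dashed line marks the median of all genes tested, 1.88, and the dotted line the median of the genes called higher, 2.40; *trabd2b* stands highest at 4.44, and *nkd1*, *wls*, *fzd2* and *bambib* sit at or near the dashed line.

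Levels can be compared between genes only per transcript length, for which the deposited TPM values (transcripts scaled to a fixed sum per library) were used. The authors' mean TPM in Venus positive cells was 368.1 for *wnt11r*, 69.7 for *nkd1*, 45.2 for *dkk1b*, 38.4 for *nkd2b* and 17.2 for *apcdd1l*. The authors' means in double negative cells ran in the same order, with 44.1 for *wnt11r*, 19.3 for *nkd1*, 7.65 for *dkk1b*, 5.70 for *nkd2b* and 2.74 for *apcdd1l*. The ligand thus stood above each of the 4 inhibitors in both groups, and in the Venus positive mean it was number 29 of the 756 genes by TPM, where *nkd1* was number 180 and *apcdd1l* number 387.

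The single double negative libraries show which steps of that order exceed the spread between these 2 libraries. *wnt11r* had 51.8 and 36.4 TPM in double negative replicates 1 and 2, above *nkd1* with 21.8 and 16.8 TPM. *nkd1* in turn did not overlap with *dkk1b*, which had 8.35 and 6.95 TPM. *nkd2b* had 7.54 and 3.85 TPM, a range that overlapped with that of *dkk1b*, although *dkk1b* was the higher of the pair within each of the 2 libraries. *apcdd1l*, with 2.03 and 3.44 TPM, lay below both *nkd2b* values by a narrow margin. The steps among these 3 genes rest on few reads in replicates 1 and 2, 78 and 75 for *dkk1b*, 81 and 44 for *nkd2b*, and 44 and 79 for *apcdd1l*. Counting error was not set against these TPM values. For the Venus positive libraries the mean TPM alone was used, so the same check was not made there.

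**Figure D3:**
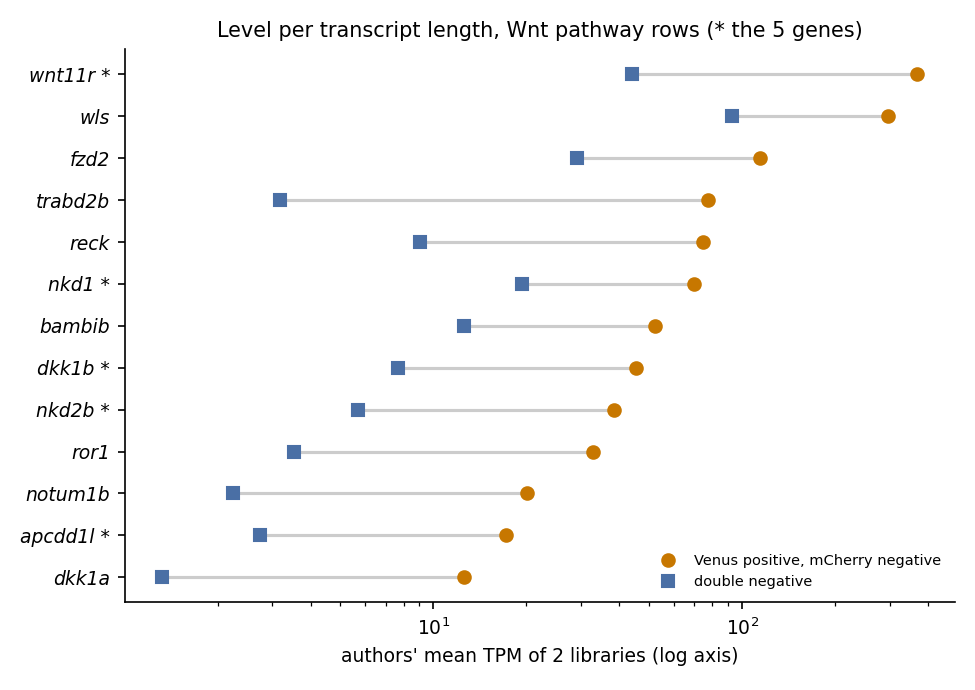
The authors' mean TPM over the 2 libraries of a group (log axis) for the 13 Wnt pathway genes of the table, with Venus positive, mCherry negative cells as orange circles and double negative cells as blue squares; the 5 genes carry an asterisk. *wnt11r* has the highest Venus positive value, 368.1 TPM, followed by *wls* with 295.9 TPM, whereas in double negative cells *wls* is highest with 92.6 TPM.

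Reads of an inhibitor per 100 reads of *wnt11r* can be given within a library, free of any scaling between libraries. *wnt11r* had the largest log2 fold change of the 5 genes, 2.94, and ranked 140 among the 484 genes called higher. A lower log2 ratio in Venus positive cells therefore followed for each inhibitor from the fold changes above, and is no separate result. *nkd1* had 54.3 and 39.5 reads per 100 *wnt11r* reads in the Venus positive libraries, against 90.5 and 113 in the double negative libraries. The groups did not overlap, and the log2 ratio was lower by 1.13 in Venus positive cells (difference -1.13). Reads are not corrected for transcript length, so these ratios compare the groups and not the levels of the genes.

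*dkk1b* had 4.14 and 7.20 reads per 100 *wnt11r* reads in Venus positive libraries, against 7.39 and 9.54 in double negative libraries, which leaves a narrow gap between the groups (difference of log2 ratios -0.62). *apcdd1l* had 4.26 and 5.54 in Venus positive libraries, against 4.17 and 10.1 in double negative libraries, and the groups overlapped (difference -0.41). *nkd2b* had 3.52 and 7.12 in Venus positive libraries, against 7.67 and 5.60 in double negative libraries, and again overlapped (difference -0.39). The exact permutation test, two-sided, gave p = 0.333 for *nkd1* and *dkk1b*, 0.667 for *nkd2b* and 1.0 for *apcdd1l* over these 4 ratios, where 0.333 is the smallest p that 2 against 2 libraries allow, so none could pass a threshold before or after adjustment. Between the Naked cuticle genes, *nkd1* had 15.4 and 5.55 reads per *nkd2b* read in Venus positive libraries, against 11.8 and 20.2 in double negative libraries, with overlap.

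**Figure D4:**
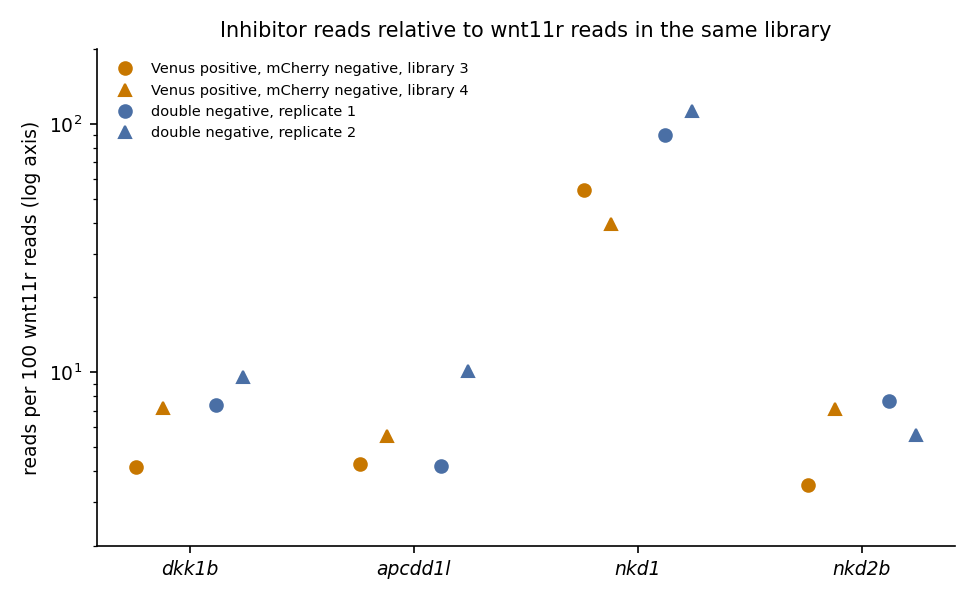
Reads of each inhibitor gene per 100 reads of *wnt11r* in the same library (log axis), with Venus positive, mCherry negative libraries in orange to the left of double negative libraries in blue. *nkd1* is the gene with a wide gap, 54.3 and 39.5 in Venus positive against 90.5 and 113 in double negative libraries, whereas the points of *apcdd1l* and *nkd2b* overlap between the groups.

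The 5 genes were set beside a list of 148 Wnt pathway genes, of which 13 are in the table. All 13 were called higher and 0 lower in Venus positive cells, in a table where 100.0% of the genes tested were called and 64.2% were called higher. Their median log2 fold change was 2.63, beside 1.88 over all genes tested and 2.40 over those called higher. The 13 include the 5 genes themselves, so neither this count nor this median is independent of them. When the libraries were scaled over the listed genes by RLE, 2 of the 13 were called (*wnt11r* and *trabd2b*), and *nkd1*, *fzd2* and *wls* turned to a value below 0. With TMM scaling 4 were called (*ror1* and *reck* besides), and *wls* was below 0. The other 135 genes of the list were not analysed here, so the count says nothing about them. By role, the table held 1 of 25 ligands (*wnt11r*), 3 of 30 receptors and coreceptors and 5 of 25 antagonists. It also held 3 of 37 transducers and feedback genes, 1 of 13 targets and 0 of 18 planar polarity genes. Each of the 13 genes was counted under 1 role, so *nkd1*, a feedback gene induced by Wnt/β-catenin signaling, is not among the targets.

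Among the receptors, *ror1*, a receptor tyrosine kinase that binds Wnts, had 1621 and 1149 normalized read counts in Venus positive cells, against 149.5 and 177.1 in double negative cells (log2 fold change 3.08, SE 0.45, edgeR adjusted p = 0.000282). *reck*, a membrane-anchored protein that works with Gpr124 in Wnt7 signals to brain endothelium in zebrafish, had 2535 and 3076, against 325.1 and 439.3 in double negative cells (log2 fold change 2.88, SE 0.41, adjusted p = 0.00026). The paper also counts *reck* among the markers of meningeal precursor cells. *fzd2*, a Frizzled receptor, had 2218 and 2285, against 774.6 and 459.1 in double negative cells (log2 fold change 1.87, SE 0.42, adjusted p = 0.00182). The Venus positive libraries of all 3 lay above the double negative libraries, and *fzd2* had the smallest difference.

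Besides *dkk1b* and *apcdd1l*, the antagonists held *dkk1a*, the paralog of *dkk1b*, *notum1b*, an esterase that removes the lipid from Wnts, and *trabd2b*, a Tiki family protease that cuts Wnts. *trabd2b* showed the largest fold change of the 13 genes, with 2012 and 1156 normalized read counts in Venus positive cells against 53.0 and 93.0 in double negative cells (log2 fold change 4.44, SE 0.53, edgeR adjusted p = 0.000103). *dkk1a* had 133.3 and 117.1, against 13.9 and 14.8 in double negative cells (log2 fold change 3.12, SE 0.79, adjusted p = 0.00332). *notum1b* had 270.2 and 527.7, against 69.5 and 25.7 in double negative cells (log2 fold change 3.06, SE 0.73, adjusted p = 0.00239). Its log2 fold change was 3.96 without double negative replicate 1 and 2.52 without replicate 2. Without Venus positive library 3 it was 3.46, and without library 4 it was 2.50. Per transcript length *dkk1b* stood above its paralog, with the authors' mean of 45.2 TPM against 12.6 TPM for *dkk1a* in Venus positive cells and 7.65 TPM against 1.32 TPM in double negative cells.

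The third transducer gene, *wls*, encodes the cargo receptor that carries Wnts to the cell surface. It had 5778 and 7272 normalized read counts in Venus positive cells, against 3085 and 1248 in double negative cells (log2 fold change 1.59, SE 0.48, edgeR adjusted p = 0.00691). Its double negative libraries were 2.47-fold apart. Without replicate 2 the call was lost (log2 fold change 1.08), while without replicate 1 the log2 fold change was 2.39. The target *bambib*, a pseudoreceptor of the TGF-β family that is induced by Wnt/β-catenin in human cells, had 586.5 and 576.6, against 113.9 and 198.9 in double negative cells (log2 fold change 1.90, SE 0.53, adjusted p = 0.00499).

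Likeness of pattern was measured as the Euclidean distance between log2(normalized read count + 1) values over the 4 libraries, after each gene's mean was subtracted, among 574 genes with a symbol that is no automatic identifier. *wnt11r* lay nearest to *hspb8*, a small heat shock protein (distance 0.10), and *ttn.2*, a titin of the sarcomere (0.17). *hspb8* had only 31 and 21 reads in the double negative libraries, so its place as nearest rests on few reads. *nkd1* lay nearest to *hspb1*, another small heat shock protein (0.07), and *ntn1a*, a netrin (0.08). *dkk1b* lay nearest to *mxra8b* (0.21) and *npr3*, a natriuretic peptide receptor (0.27).

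*apcdd1l* lay nearest to *pkdccb* (0.23) and *cyth3a* (0.25). *nkd2b* lay nearest to *igfbp7* (0.15) and *cntfr*, the receptor of ciliary neurotrophic factor (0.22). The median distance of all genes searched was between 1.35 for *nkd1* and 1.72 for *nkd2b*. The genes searched include those lower in Venus positive cells, so this median is a loose yardstick for genes that are higher. Among the 5 genes themselves the closest pair was *dkk1b* and *nkd2b* (0.63), both higher in Venus positive library 4, and the most distant pair was the Naked cuticle genes *nkd1* and *nkd2b* (1.37). With 4 libraries in 2 groups, these distances are a description without a test.

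Other genes separated the groups as well, in a table where every gene tested was called, 64.2% of them higher and 35.8% lower. *apln*, the gene of the Venus reporter, had 10610 and 9841 normalized read counts in Venus positive cells, against 688.5 and 775.7 in double negative cells. Of 29 fibroblast and meninges genes, 19 were in the table and all 19 were higher. Their summed normalized read counts were 74694 and 62973 in Venus positive libraries 3 and 4, against 12422 and 14956 in double negative libraries. This list includes *reck* and genes the study picked from these libraries. Of 19 erythrocyte genes, 17 were in the table and all 17 were lower. Their sums were 5482 and 4380 in Venus positive libraries 3 and 4, against 228510 and 382850 in double negative libraries. Of these genes, 2 and 3 had 0 reads in Venus positive libraries 3 and 4. Of 25 epidermis and epithelium genes, 14 were lower and 2 higher. Their sums were 43817 and 79855 in Venus positive libraries 3 and 4, against 416490 and 313860 in double negative libraries. Venus positive library 4, with the higher normalized counts of all 5 genes but *nkd1*, thus had the higher epidermis and the lower fibroblast sum. The part of these cell types in the differences of the 5 Wnt genes, between groups or between libraries of a group, was not tested. Of the endothelium, neuron, neural progenitor and leukocyte lists 0 genes were in the table. Of 22 skeletal muscle genes 2 were (1 higher, 1 lower), and so were 4 of 16 pigment cell and neural crest genes (1 higher, 3 lower). The table holds only genes that passed the authors' comparison, so a gene's absence says nothing about its level or about its cell type.

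**Figure D5:**
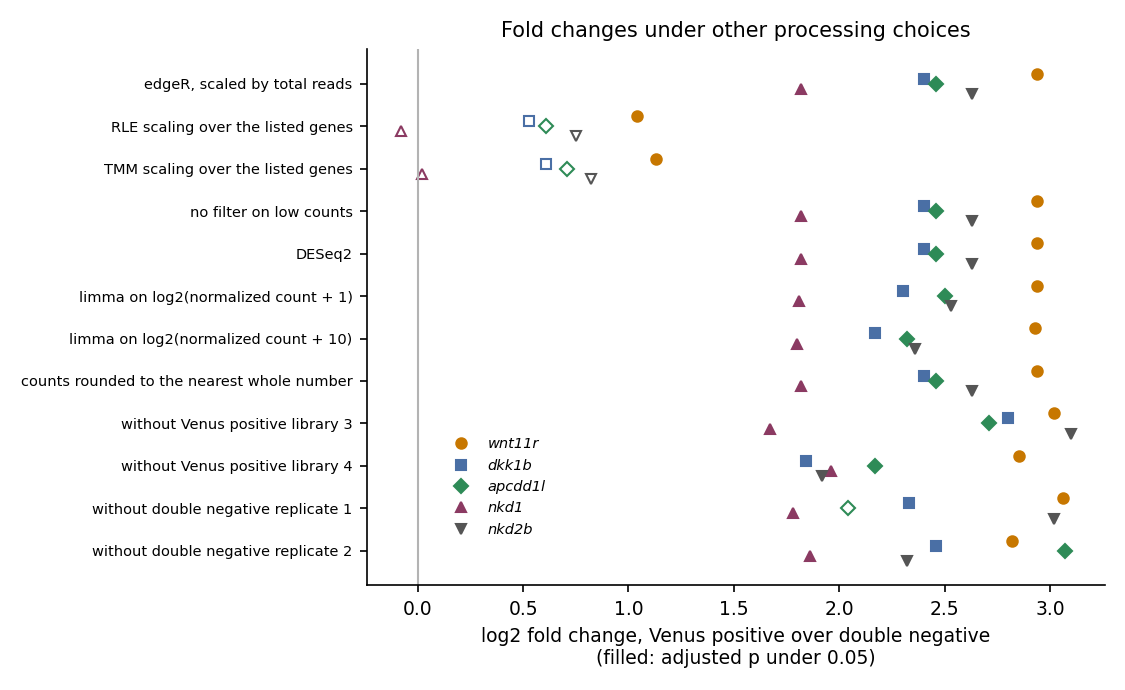
Log2 fold change of Venus positive over double negative cells for the 5 genes under the processing used for the report (top row) and 11 other choices; filled symbols have an adjusted p under 0.05 in that fit and open symbols do not. The symbols move to between -0.08 and 1.13 under RLE and TMM scaling over the listed genes, where *wnt11r* alone stays filled, and *apcdd1l* is open without double negative replicate 1.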

How the data were processed

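Cells of 4 libraries were sequenced by Smart-seq2. According to the methods and the submitters' processing notes, the authors filtered reads with SOAPnuke, mapped them to GRCz11 with HISAT2 2.0.4, aligned them to the gene set with Bowtie2 2.4.4, estimated levels with RSEM 1.2.28 and compared groups with DESeq2. The deposited table holds 756 genes, and all 756 have a deposited adjusted p-value under 0.05, which was read only to learn how the genes were selected. For each library it holds estimated counts that the authors did not normalize and that need not be whole. The authors also deposited FPKM and TPM, which correct for transcript length and depth, and normalized counts, a signal obtained by dividing counts by 1 factor per library. The pairwise comparisons between libraries (18 columns) and 6 columns with other per-library values were left out. The columns of the authors' own group comparison, which hold fold changes and p-values, entered no result. Venus positive libraries are numbered 3 and 4 in the table and 1 and 2 in the labels, so they entered without a replicate number.

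Estimated counts were rounded up, which gave 1 constant ratio to the deposited normalized counts in 746 and 744 rows of the double negative libraries. The plan was to scale by the factors behind the normalized counts. For the Venus positive libraries these could not be obtained from the columns used. All 4 libraries were therefore scaled by relative total reads, recovered from read counts and FPKM in genes with FPKM over 5. The ratio between the double negative libraries came from 397 genes, of which 299 lay within 1% of it. The Venus positive libraries were fitted on 312 genes, of which 194 returned the deposited mean FPKM within 1%. The factors were 0.825 and 1.04 for Venus positive libraries 3 and 4, and 1.15 and 1.01 for double negative replicates 1 and 2. Every "normalized read count" in the text is the count divided by this factor. Reads over the listed genes came to between 876579 and 1175560 per library. This is not library depth, for which the sources used here give no value.

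The 754 genes that reached 10 counts in 2 or more libraries were tested in R 4.3.3 with the quasi-likelihood test of edgeR 4.0.16, with group as the only term, two-sided, at a Benjamini-Hochberg adjusted p under 0.05. The biological coefficient of variation was 0.401, estimated from genes selected for a difference, so p-values can be too small, and the adjustment over listed genes is no false discovery rate over the genome. Standard errors of the edgeR fits were the absolute log2 fold change divided by the square root of the test's F statistic. The code was tested on simulated data. Alternatives were DESeq2 1.42.0 and limma 3.58.1 on log2(normalized count + 1) and + 10, all with the scaling by total reads. Others were RLE and TMM scaling over the listed genes, no filter, rounding to the nearest whole number, and each library left out. Exact permutation tests used scipy 1.17.1. Gene lists were matched on symbols and NCBI gene IDs, and 737 of the table's IDs were found in the RefSeq genes of GRCz12tu, used only for names. The 5 genes and the lists were chosen with earlier results of these data known. Named genes are the 5, every Wnt pathway gene in the table, the 2 nearest genes by pattern for each of the 5, and *apln*.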

Additional observations from a re-analysis of the deposited data

How the results depend on the processing

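Over 11 alternatives the 5 genes gave 55 fold changes, of which 46 kept their direction and call. Of the 11 alternatives, 9 kept the scaling by total reads. All listed genes had already passed the authors' comparison of these libraries, so a kept call is no separate evidence of a difference. The exceptions were 8 values that kept their sign but lost their call and 1 with a turned sign, *nkd1* with RLE, which lost its call as well (edgeR adjusted p = 0.904). Scaling over the listed genes moved the median log2 fold change of all genes from 1.88 to -0.02 with RLE and 0.08 with TMM. It left 1 of the 5 genes called (*wnt11r*, log2 fold change 1.04 with RLE and 1.13 with TMM), and 72 genes higher with RLE and 84 with TMM, against 484, by its own construction, since it sets the middle of a selected list to no change. Relative to the median of all genes, *wnt11r* was 1.06, *dkk1b* 0.52, *apcdd1l* 0.59, *nkd2b* 0.75 and *nkd1* -0.06 with total reads, and 1.06, 0.55, 0.62, 0.77 and -0.07 with RLE. With RLE the sign turned for *nkd1* (-0.08), *fzd2* (-0.05), *hspb1* (-0.04), *ntn1a* (-0.14) and *wls* (-0.33), and with TMM for *ntn1a* (-0.03) and *wls* (-0.25). When each library was left out in turn, 4 to 5 of the 5 genes were called. The log2 fold change ran between 2.82 and 3.06 for *wnt11r*, 1.84 and 2.80 for *dkk1b*, 2.04 and 3.07 for *apcdd1l*, 1.67 and 1.96 for *nkd1*, and 1.92 and 3.10 for *nkd2b*. Genes higher over the whole table then numbered 448 to 462 and genes lower 136 to 269, the lowest counts (136 and 140) without double negative replicates 1 and 2, where 640 genes passed the filter. *apcdd1l* and *pkdccb* lost their calls without double negative replicate 1, and *wls* without replicate 2. A group left with 1 library borrows its spread from the other group, so calls kept or lost in these fits do not measure how stable a gene is. DESeq2, limma with either pseudocount, no filter and nearest rounding, all with the scaling by total reads, changed no call among the 5 genes. Over the whole table these settings called 482 to 485 genes higher and 270 to 271 lower, of 754 to 756 tested. Kept calls are therefore not particular to the 5 genes. No paired analysis was possible because the table and the labels number the Venus positive libraries differently. Among the 5 genes depth limits *apcdd1l* and *nkd2b* most, with 44 reads in 1 double negative library each.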
